A study of Rattus norvegicus with 18 samples.

Results

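The liver transcriptome of rats given vitamin D at 5000 U/kg was compared with that of rats given none (0 U/kg). The members of this comparison were the 12 libraries whose titles carry either dose, 6 rats each, out of 18 libraries in the series; the other 6 came from rats at 1000 U/kg. All were female, about 1 year old, and had been on their dose for 3 months, and each library came from the liver of a separate rat. The labels name no strain and no vehicle, and leave unsaid whether the dose refers to body weight or to feed. RNA was read from the 3' end of polyadenylated transcripts, so a count stands for transcripts of a gene, long or short.

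The liver is the first stop of vitamin D. Hepatocytes carry out its first hydroxylation, chiefly through the enzymes Cyp2r1 and Cyp27a1, and secrete the carrier protein Gc that holds it in plasma. The active hormone, made mostly in the kidney, acts through the vitamin D receptor, a nuclear receptor that binds DNA together with a retinoid X receptor. Hepatocytes are known to hold little of this receptor, and more of it is found in the other cell types of the liver. The files give genes by Ensembl ID only, and 0 of these 30560 IDs had a match among the symbols at hand, so no value is given for the genes just named or for markers of liver cells. The tissue label was therefore not checked against its markers. Genes are described below by their level, their direction and their spread between rats, and 4 of them by ID.

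Depth and make-up of the libraries were measured first. Gene counts totalled 7969100 to 12555457 per library in undosed rats and 6787033 to 9185229 at 5000 U/kg, with 9720840 ± 1654270 against 8083260 ± 988903 (SD, n = 6 each; exact permutation test, two-sided, p = 0.0541, adjusted p = 0.244 over 9 library measures). With all libraries thinned to the shallowest one, 14241 ± 728 genes were seen in undosed rats and 14616 ± 85.7 at 5000 U/kg (exact permutation p = 0.255, adjusted p = 0.628). One undosed library, replicate 2, stood apart from its group: its Spearman correlation with the other undosed rats averaged 0.698, where the other 11 libraries had 0.869 to 0.942 with their own groups. In that library 160 of 2499 genes that held at least 20 CPM (gene counts scaled to the library total, TMM-adjusted) in all other 11 libraries fell below the others' minimum divided by 4, and 25 genes exceeded 10 times the maximum of the others. No other library had more than 10 and 1 such genes. Its share of reads outside genes was 11.8%, against 7.76% to 10.0% in the other 11. Results that rest on this rat are given with and without it, and the part that its RNA or its library played in these results was not tested.

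No gene could be called different between the livers at 5000 and 0 U/kg. The comparison tested 11268 genes with edgeR's quasi-likelihood test, and 0 (0%) passed a Benjamini-Hochberg adjusted p of 0.05. Without adjustment, 400 genes (3.55% of those tested) had a p under 0.05. The mean at 5000 U/kg was the higher one in 143 of them (1.27% of those tested) and the lower one in 257 (2.28%). Uniform p-values would put 5% of genes there. DESeq2 called 0 genes as well, with 458 of 10734 at an unadjusted p under 0.05. So did limma voom, with 930 of 11268 there when libraries were given quality weights and 348 of 11268 with no weights. The share was above 5% with quality weights, and below it with edgeR, DESeq2 and unweighted voom. The balance of direction depended on the test with all rats kept: limma voom had 522 genes higher and 408 lower with weights and 238 higher and 110 lower with none, and edgeR with the replicate number as a block 171 higher and 162 lower.

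Most genes lay within a narrow band of fold change. Over all genes the log2 fold change had quartiles of −0.33 and 0.16 and a 5th and 95th percentile of −0.88 and 0.55, about a median of −0.080. The median log2 fold change was −0.11 in the 3688 genes that averaged under 5 CPM over the 12 rats, −0.078 at 5 to 20 CPM, −0.076 at 20 to 100 CPM, −0.042 at 100 to 1000 CPM and 0.038 in the 104 genes of 1000 CPM and over. The share of genes with a higher mean at 5000 U/kg ran from 39.8% at 5 to 20 CPM to 52.9% at 1000 CPM and over. Without the undosed replicate 2 the median was −0.024 over all genes and between −0.035 and −0.0054 in each class of level, and 46.3% to 49.3% of genes had a higher mean at 5000 U/kg. The shift towards lower values at 5000 U/kg was thus smaller with that single undosed rat left out. It also depended on the method with all rats kept. The median was −0.10 with DESeq2's Wald test, −0.032 with the replicate number as a block, and −0.00037 and 0.022 with weighted and unweighted limma voom.

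**Figure D1:**
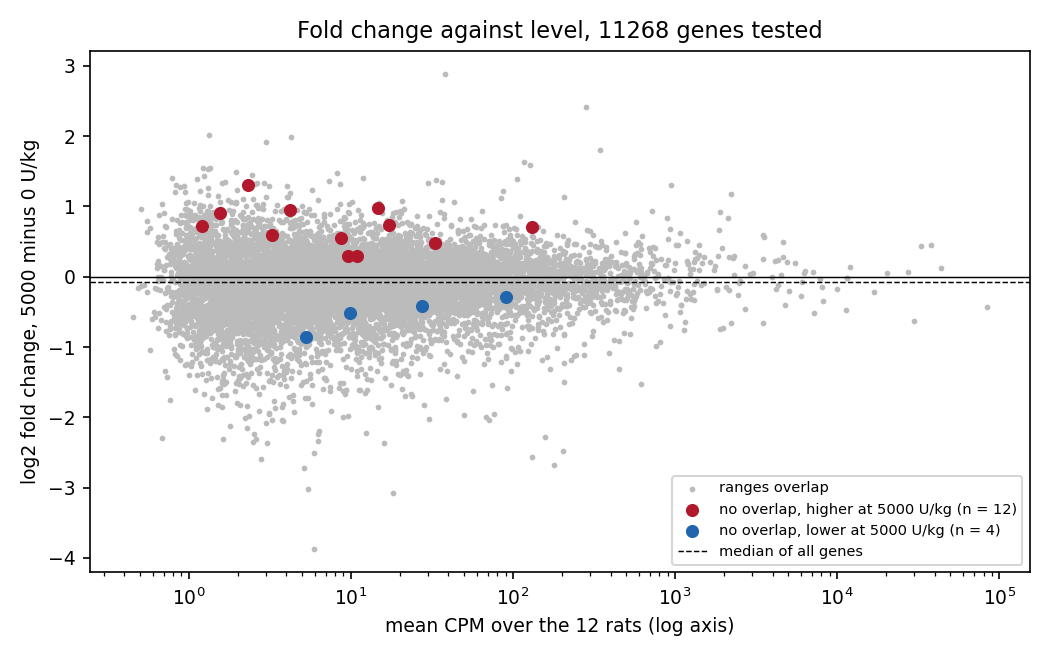
Log2 fold change between 5000 and 0 U/kg (vertical axis) against mean CPM over the 12 rats (horizontal, log axis) for the 11268 genes tested, each point a gene. The 12 genes whose 6 dosed rats all lay above the 6 undosed rats and the 4 whose dosed rats all lay below are coloured; they average 1.20 to 131 CPM and sit inside the cloud of the other genes.

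Level set how closely a fold change could be read. A 95% interval that stayed inside a 2-fold change either way was found for 14.0% of genes under 5 CPM, 53.3% at 5 to 20 CPM, 63.6% at 20 to 100 CPM, 62.5% at 100 to 1000 CPM and 51.0% at 1000 CPM and over. The typical half-width was 2.14-fold under 5 CPM and 1.55-fold at 20 to 100 CPM. It was no narrower in the most abundant genes, at 1.68-fold, although counting error is smallest there. Without the undosed replicate 2 the shares within 2-fold were 17.4%, 61.8%, 73.8%, 72.2% and 56.4% in the same order. These intervals are for single genes and unadjusted, and a call after adjustment over 11268 genes asked for more. A count of 0 called genes therefore does not show that changes of these sizes, or of larger ones, are absent.

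Most genes of more than 2-fold lower mean owed their undosed level to a single rat. Among the 7580 genes of at least 5 CPM, 184 were more than 2-fold lower at 5000 U/kg and 27 more than 2-fold higher. In 148 of the 184 (80.4%) 1 undosed rat held over 50% of the summed CPM of its group, and that rat was replicate 2 in 138 of them, replicate 5 in 7 and replicate 1 in 3. In only 23 of the 184 did the medians of the groups also differ by more than 2-fold. Of the 27 higher genes, 8 rested in the same way on 1 dosed rat, which was replicate 5 in 6 of them and replicate 3 in 2, and 16 had medians more than 2-fold apart. Without the undosed replicate 2, 70 genes of at least 5 CPM were more than 2-fold lower and 55 more than 2-fold higher.

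The same rat stood behind most genes of lower mean at an unadjusted p under 0.05. In 198 of these 257 genes (77.0%) the undosed replicate 2 was the highest of the 6 undosed rats, where it was the highest in 35.7% of all genes tested. The next was replicate 5, highest in 28 of the 257. Of the 143 genes of higher mean, the highest dosed rat was replicate 2 in 39, replicate 5 in 35, replicate 1 in 33, replicate 6 in 18, replicate 3 in 14 and replicate 4 in 4. No dosed rat held the top place in more than 27.3% of them. These genes were chosen by the comparison itself, so the shares describe it and test nothing.

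**Figure D2:**
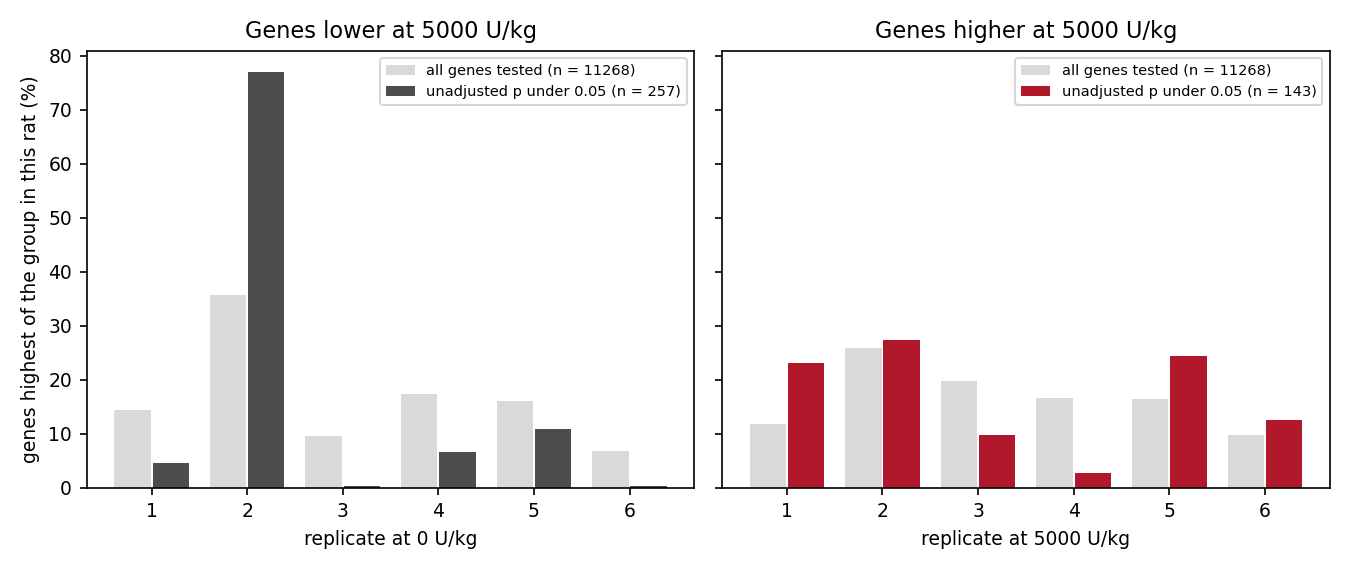
Share of genes (vertical axis, %) in which each rat (horizontal axis) was the highest of its group, for all 11268 genes tested (pale bars) and for genes at an unadjusted p under 0.05 (dark bars). Left, undosed rats and the 257 genes of lower mean at 5000 U/kg, where replicate 2 holds 77.0%; right, rats at 5000 U/kg and the 143 genes of higher mean, where no rat holds more than 27.3%.

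Leaving out the undosed replicate 2 changed which genes lay in this tail. Of the 143 genes of higher mean, all 143 kept their sign and 79 still had an unadjusted p under 0.05, and their median log2 fold change went from 0.73 to 0.66. Of the 257 genes of lower mean, 222 kept their sign, 35 changed it and 69 still had an unadjusted p under 0.05, and their median went from −1.07 to −0.46. In that fit 672 of 11420 genes (5.88%) reached an unadjusted p under 0.05, 359 with the higher mean at 5000 U/kg and 313 with the lower, and edgeR called 0 (smallest adjusted p = 0.745). The balance of direction was the reverse of that with all rats. Of the other 11 rats, leaving out each in turn kept more genes lower than higher, with 259 genes without replicate 1 at 5000 U/kg, 264 without replicate 6 at 5000 U/kg and 650 without the undosed replicate 3 at the ends of the range.

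**Figure D3:**
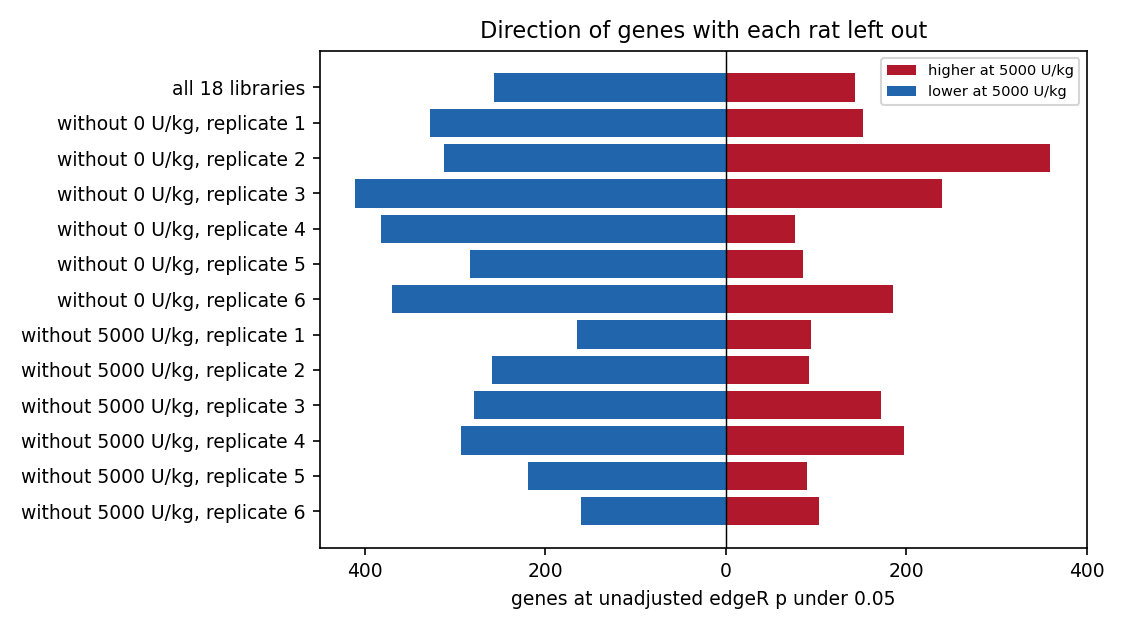
Number of genes at an unadjusted edgeR p under 0.05 (horizontal axis), split by direction, with all libraries and with each of the 12 rats left out (vertical axis). Bars to the left are genes of lower and bars to the right genes of higher mean at 5000 U/kg; lower genes outnumber higher ones in every row but the one without the undosed replicate 2, with 359 higher and 313 lower.

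The spread between rats was larger in the undosed group with all rats kept, and this order depended on the same rat. The SD of log2 CPM between rats had a median over genes of 0.74 in undosed and 0.49 in dosed rats, and it was larger in undosed rats for 76.1% of genes. Without the undosed replicate 2 the median was 0.43 in the 5 undosed rats left, and the SD was larger there for 42.1% of genes. No other rat of either group mattered as much: leaving out any other undosed rat gave medians of 0.74 to 0.80, and leaving out any dosed rat 0.43 to 0.51. The lowest dosed value, 0.43, was without replicate 2 at 5000 U/kg. It was level with the 0.43 of the 5 undosed rats, so over all genes neither group clearly varied more once each lost its replicate 2. The mean correlation of a library with its own group was 0.851 ± 0.0761 in undosed and 0.920 ± 0.0177 in dosed rats (SD, n = 6 each; exact permutation p = 0.00649, adjusted p = 0.0584 over 9 library measures), which did not pass after adjustment. Among the 5 undosed rats other than replicate 2 it was 0.928 ± 0.0134 (SD, n = 5), against which the dosed rats were no longer the higher ones (exact permutation p = 0.461, unadjusted). Each value averages over pairs shared with the other libraries of its group, and it was not recomputed for each split. The values of a group are thus not independent, and both p-values are only descriptive.

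Abundant genes varied more between dosed rats than between the 5 other undosed rats. For the 1034 genes of at least 100 CPM the median SD of log2 CPM was 0.41 in the 6 dosed rats (0.35 to 0.44 with any 1 left out) and 0.29 in the 5 undosed rats (0.26 to 0.31 with any 1 more left out). At 1000 CPM and over the medians were 0.46 and 0.30, and the SD was larger in undosed rats for only 18.3% of the 104 genes. With all 6 undosed rats the order was the opposite, at 0.72 in undosed against 0.46 in dosed rats. Genes of a library vary together, so these shares over genes are not independent, and the difference in spread was not tested.

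**Figure D4:**
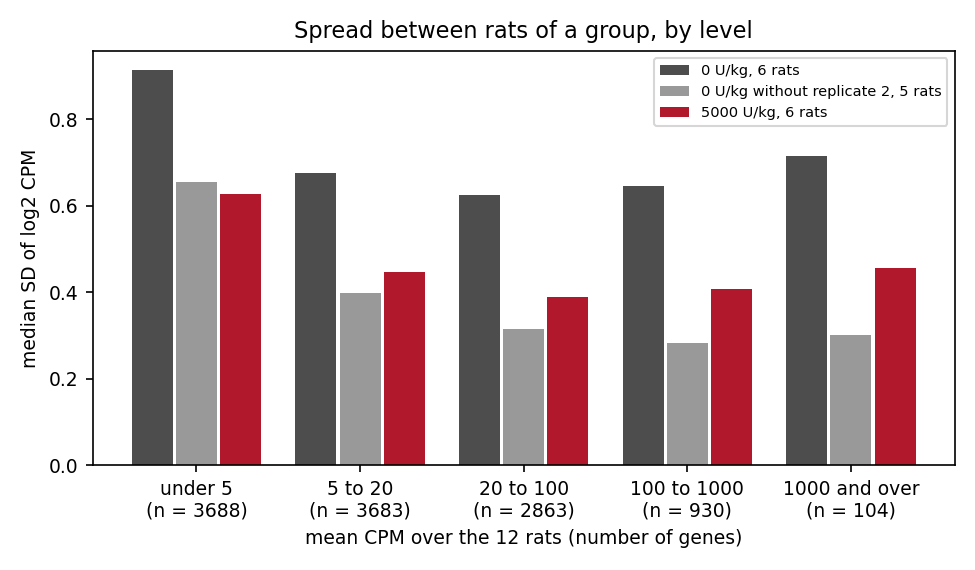
Median over genes of the SD of log2 CPM between rats of a group (vertical axis) by mean CPM over the 12 rats (horizontal axis). Undosed rats (dark) have the largest spread in every class of level. Without their replicate 2 (pale) they have less than all 6 rats at 5000 U/kg (red) in all classes from 5 CPM upwards.

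Single rats lay far from their group in the most variable genes. Among 1929 genes of at least 50 CPM, the 5 of largest SD in undosed rats all had the undosed replicate 2 as the rat farthest from the median. In 4 of them that rat was low: the first held 0.661 CPM there against a median of 143 CPM and a maximum of 268 CPM in undosed rats, and 74.4 to 255 CPM at 5000 U/kg. In the other it was high, at 1767 CPM against a median of 22.7 CPM. At 5000 U/kg the 5 most variable genes had their farthest rat in replicate 5, 6, 4, 2 and 2. The first of them ran from 4.63 to 830 CPM among dosed rats, with a median of 45.2 CPM, and from 0.771 to 187 CPM among undosed rats.

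With all rats, none of the most abundant genes separated the groups. The 100 most abundant genes held 58.3% of all CPM, their mean was higher at 5000 U/kg in 53 and lower in 47 with a median log2 fold change of 0.038, and the ranges of the groups overlapped in all of them. With the undosed replicate 2 left out, 50 of these genes were higher and 50 lower with a median of 0.0020, and 1 gene, lower at 5000 U/kg, did not overlap. The most abundant gene averaged 96780 ± 55190 CPM in undosed rats (7469 to 161573) and 71449 ± 44857 CPM in dosed rats (18547 to 128849), a log2 fold change of −0.44 (95% confidence interval −1.60 to 0.72). Its range within each group was far wider than the difference of the means. The second averaged 42001 ± 5715 and 45969 ± 12436 CPM (SD, n = 6 each), with a log2 fold change of 0.13 (95% confidence interval −0.46 to 0.72). Of the 10 most abundant, the fourth came closest to a separation: it held 19221 to 31988 CPM in undosed and 29661 to 48903 CPM in dosed rats, or 0.44 on the log2 scale (SE 0.26, edgeR unadjusted p = 0.105).

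In 16 genes (0.142% of those tested) the 6 dosed rats lay entirely on one side of the 6 undosed rats. Arbitrary labels would separate a gene in this way with a probability of 0.00216, the exact permutation p of such a gene. The share found was below that, so these genes are described and not called. In 12 of them (0.106%) all dosed rats were higher and in 4 (0.0355%) all were lower. They were genes of low to middling level, from 1.20 to 131 CPM with a median of 9.69 CPM, and 11 of them averaged at least 5 CPM. Fold changes were modest, from 0.28 to 1.30 in absolute log2 value. The gap was slight: in 13 of the 16 the nearest rats of the groups were less than 1.1-fold apart, and the widest gap was 1.13-fold. Only 9 of the 16 had an unadjusted edgeR p under 0.05, and none passed adjustment (each adjusted p = 0.99996). A further 8 genes missed a full separation on the higher side, and 1 on the lower side, by a single pair of rats out of 36.

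The rats at 1000 U/kg, whose ranges were not used to choose these genes but whose libraries entered the low-count filter and the scaling, had a mean between those of 0 and 5000 U/kg in 11 of the 16, in 8 of the 12 higher and 3 of the 4 lower genes. In 0 of the 16 did all 6 rats at 1000 U/kg lie within the range of either dose. A middle position is what genes picked for a low and a high group tend to show, so no order of doses is read from it. With the filter and scaling taken from only the 12 libraries compared, 10 of 10556 genes did not overlap. Of these 6 were higher and 4 lower, and all were among the 16. With DESeq2's size factors 14 of the 16 did not overlap, and with upper-quartile scaling 12 of them. When 1 rat was left out, 18 to 49 genes did not overlap, of 11415 to 11473 tested, since fewer rats separate more easily. Without the undosed replicates 1 to 6 in turn the numbers were 28, 46, 49, 18, 24 and 33. Without the dosed replicates 1 to 6 in turn they were 23, 32, 25, 36, 23 and 20. Without the undosed replicate 2 the 46 were evenly split, with 23 higher and 23 lower.

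Of the genes of at least 5 CPM with a higher mean at 5000 U/kg, ENSRNOG00000042501 had the smallest p. It held 8.55, 11.2, 13.6, 8.01, 6.44 and 11.9 CPM in undosed replicates 1 to 6 and 21.5, 26.8, 14.0, 13.8, 22.1 and 19.7 CPM in dosed replicates 1 to 6. All dosed rats were above all undosed rats, but 2 of them by little, since the lowest dosed rat (13.8 CPM) was 1.01 times the highest undosed rat (13.6 CPM). The rats at 1000 U/kg ran from 11.0 to 20.1 CPM with a median of 12.7 CPM and overlapped both groups. These values rested on 61 to 198 counts per library of the 12. On the log2 scale the dosed rats were higher by 0.98 (SE 0.24; edgeR, adjusted p = 0.99996), and by at least 0.82 in each of 22 alternative settings.

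ENSRNOG00000070397 had the second smallest p among genes of higher mean. Undosed rats held 1.87 to 23.1 CPM with a median of 7.06 CPM, and dosed rats 14.0 to 280 CPM with a median of 17.5 CPM. Every dosed rat exceeded 5 of the 6 undosed rats, and the undosed replicate 5 lay above 4 of the dosed rats. Rats at 1000 U/kg, at 5.86 to 10.3 CPM, lay within the undosed range and below every dosed rat at 5000 U/kg. The fitted difference was 2.88 on the log2 scale (SE 0.73; edgeR, adjusted p = 0.99996) and 1.39 (SE 0.49; edgeR, adjusted p = 0.99952) without replicate 5 at 5000 U/kg, which held the 280 CPM. The group means, 9.08 and 66.8 CPM, lay farther apart than the medians. DESeq2's Wald test gave it an adjusted p of 0.139, and over all settings its adjusted p ran from 0.139 to 0.99996.

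ENSRNOG00000067988 had the smallest p among genes of at least 5 CPM with a lower mean at 5000 U/kg. Undosed rats held 5.31 to 9.81 CPM with a median of 6.24 CPM, and dosed rats 3.13 to 4.70 CPM with a median of 3.49 CPM. The groups did not overlap, and the lowest undosed rat was 1.13 times the highest dosed rat, the widest gap of the 16 genes. The rats at 1000 U/kg ran from 3.69 to 6.18 CPM with a median of 4.74 CPM, and overlapped both. Counts were few, at 25 to 89 per library of the 12. On the log2 scale the difference was −0.86 (SE 0.24; edgeR, adjusted p = 0.99996), and it ran from −0.94 to −0.59 over 22 settings.

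ENSRNOG00000060753 followed it by p, at −3.02 on the log2 scale (SE 0.87; edgeR, adjusted p = 0.99996). The undosed replicate 2 held 48.9 CPM, from 444 counts, and the other 5 undosed rats 1.16 to 2.07 CPM, so the gene reached the mean of 5 CPM asked of a named gene through that rat alone. Dosed rats ran from 0.578 to 2.45 CPM with a median of 1.02 CPM, and rats at 1000 U/kg from 0.721 to 3.94 CPM with a median of 2.05 CPM. Without the undosed replicate 2 the groups overlapped still, and the difference was −0.63 (SE 0.44; edgeR, adjusted p = 0.758).

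**Figure D5:**
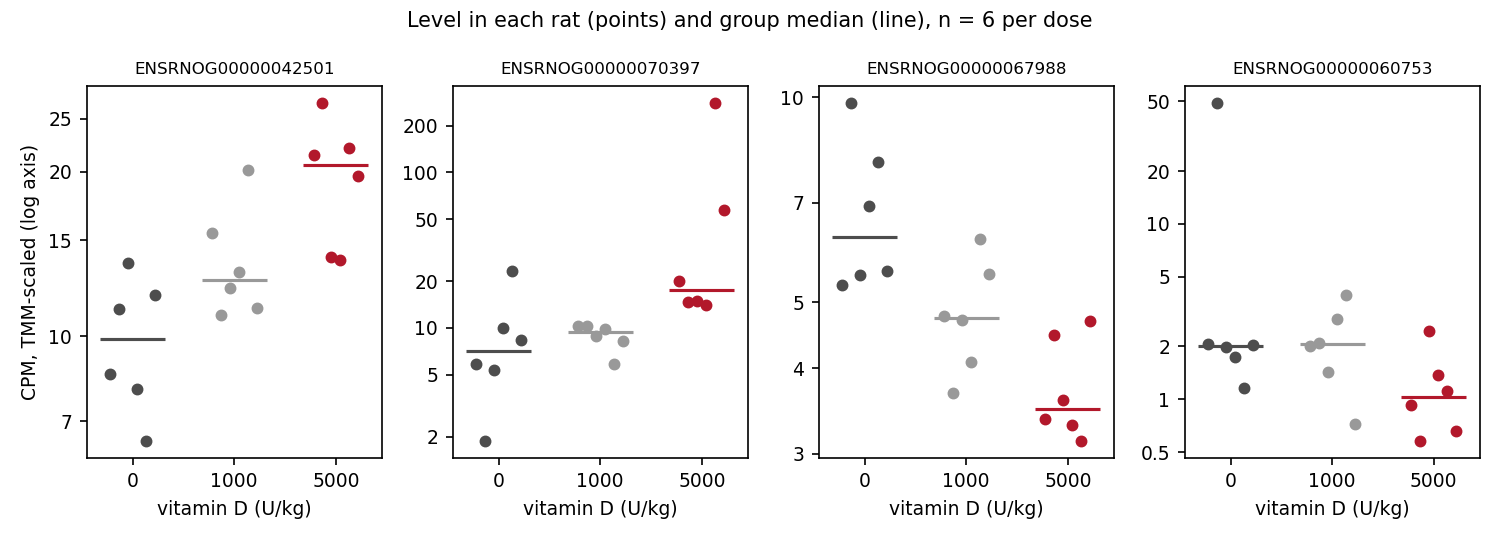
CPM (vertical, log axis, a scale of its own in each panel) of 4 genes in each rat, by dose in U/kg (horizontal axis), with a line at the median of the 6 rats. The 5000 U/kg rats are all above the undosed rats for ENSRNOG00000042501 and all below them for ENSRNOG00000067988, while replicate 5 at 5000 U/kg (280 CPM) and the undosed replicate 2 (48.9 CPM) stand far from their groups for ENSRNOG00000070397 and ENSRNOG00000060753.

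Presence or absence of counts did not fully separate the doses in any gene. Of the 30560 genes, 11069 had a count in all 12 rats and 11492 in none of them. In 0 genes did all 6 rats of one dose have a count and none of the other. Counts were seen only in rats at 5000 U/kg, in any number of them, for 1038 genes, and only in undosed rats for 1126. With 5 rats allowed, 4 genes had a count in 5 dosed and 0 undosed rats and 5 genes the reverse. Of these 9 genes 0 passed the filter on low counts, and a count of 0 in a library allows up to 3 counts at its depth, for counting error only.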

How the data were processed

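The authors deposited raw read counts per gene, not normalized, in a file for each library. Per the labels' protocols, the kit was QuantSeq 3' mRNA-Seq FWD. STAR, HTSeq, DESeq2 and FastQC are named, per the submitters' processing notes; versions, build, annotation and strand setting, not given in the sources used here, stay unknown, so counts of paralogs and of overlapping or antisense genes are uncertain. The 5 HTSeq summary rows were left out of library sizes and tests. Of the counts summed over gene and summary rows, 7.76% to 11.8% lay outside genes. A further 2.54% to 3.84% lay in more than 1 gene, and 8.45% to 12.9% had multiple alignments.

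Genes were tested with edgeR 4.0.16 in R 4.3.3: default low-count filter by group, TMM scaling, robust quasi-likelihood fit of all 18 libraries by dose, Benjamini-Hochberg adjustment over all 11268 genes tested, threshold 0.05. Intervals are approximate. CPM were TMM-scaled, and log2 CPM had a prior count of 2. Group medians were compared after adding 0.5 CPM. Single values were compared by exact permutation over 924 splits, or 462 without the undosed replicate 2. The script was tested on simulated data. Alternatives included DESeq2 1.42.0 and limma 3.58.1 (voom, with and without sample quality weights). Libraries of a group differed by more than sampling noise in every pair (lowest chi-square over its degrees of freedom 17.8).

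The RefSeq table used here (47357 genes) carried 0 matching Ensembl IDs, so the 48 gene lists by symbol, the markers and the rules that need a symbol were not used. In their place, the 2 genes of smallest p in each direction among those averaging at least 5 CPM over the 12 libraries are named. The comparison, lists and rules were chosen with earlier results of these data known.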

Additional observations from a re-analysis of the deposited data

Results flagged for a closer look

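Of 26 groups of 6 values examined (9 library measures and the CPM of 4 genes at both doses), 4 held a rat whose gap to its nearest neighbour exceeded Dixon's 95% limit for 6 samples, where chance would give 1.3. The genes were picked for a small p and several measures describe the same library, so the excess is no test.

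The undosed replicate 2 stood apart in 3 of them. Its share of reads outside genes was 11.8% (next 8.91%), and its correlation with its own group averaged 0.698 (next 0.869). It also held 48.9 CPM of ENSRNOG00000060753 (next 2.07 CPM). For ENSRNOG00000070397 the rat apart was replicate 5 at 5000 U/kg, with 280 CPM (next 57.2 CPM).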

How the results depend on the processing

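The count of 0 called genes held under all 22 alternatives. The number at an unadjusted p under 0.05, 400 of 11268, was 935 of 19788 with no filter on low counts. It was 930 of 11268 with limma voom and sample quality weights, and 348 of 11268 with no weights. Without the undosed replicate 2 and replicate 5 at 1000 U/kg it was 1010 of 11258. With single rats left out it ran from 259 of 11455 to 672 of 11420. The median log2 fold change of −0.080 was −0.00037 with weighted voom, 0.022 with unweighted voom, 0.0041 without that pair of rats, −0.032 with the replicate block and −0.11 to −0.024 with single rats left out. Genes without overlap, 16 of 11268, numbered 10 of 10556 with only the 12 libraries compared in the filter and scaling. They numbered 12 of 7715 with a mean of at least 5 CPM and 13 of 11268 with upper-quartile scaling. Without that pair they were 47 of 11258, and with single rats left out 18 to 49. The median SD between undosed rats was 0.43 to 0.80 with single rats left out and that between dosed rats 0.43 to 0.51; these alternatives, unweighted voom and the overlap in only the 12 libraries were chosen after seeing the data. The fit without 2 libraries was chosen with earlier results known. All 4 named genes kept their direction under every alternative that tested them, though ENSRNOG00000060753 ran from −3.34 to −0.61 on the log2 scale. They were chosen for a small p in the main fit, and the alternatives reuse most of the same libraries, so a kept direction tests little. The cause of these shifts was not tested.

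In the fit with a replicate block, 0 genes passed and 333 reached an unadjusted p under 0.05. Deviations of same-numbered rats correlated over 0.1 in 4 of 6 pairs, from −0.27 to 0.64. The highest were 0.64 in replicate 2 and 0.62 in replicate 4, and 3 of 6 undosed rats correlated best with their own number. The labels do not say that the numbers pair rats, so the main fit did not use them. A tie between same-numbered rats was not tested. Alternatives for gene lists were not run, as no symbol could be matched.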
